A study of Rattus norvegicus with 19 samples.

Results

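Mn1 was examined together with every transcriptionally active putative enhancer (TAPE) that the deposited RNA-seq table pairs with it. A TAPE is an intergenic stretch of open chromatin that gives reads on both DNA strands, the signature of enhancer RNA. The members were chosen by position: all rows that name Mn1, which hold 55 of the 27538 TAPEs of the series, each with its center within 1 Mb of the Mn1 start site. Mn1 itself was selected on readout, for the KCl response of distal TAPEs and their correlation with the gene. The KCl changes of TAPEs 250 to 350 kb away are therefore descriptions, with no p and no call, and their correlations with Mn1 are descriptions as well.

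The libraries came from dissociated primary neuron cultures of Sprague-Dawley rat embryos at embryonic day 18, taken from cortex, hippocampus or striatum and harvested at day in vitro 11. Each culture received vehicle (neurobasal medium) or KCl for 1 h, with no genetic manipulation in any group. KCl is given as 25 mM in the sample labels and as 10 mM in the series text. There were 3 libraries per treatment for cortex and for hippocampus, and by title 4 vehicle and 3 KCl libraries for striatum, 19 in all. The supplementary methods give the striatal counts the other way round, so the treatment of 1 striatal library is in doubt in every striatal KCl value. Of 24 genes known to be induced by neuronal activity, 23 had each of the 3 striatal KCl libraries above each of the 4 vehicle libraries as titled. The labels do not tie the libraries to litters or culture days, so p-values measure the spread between these libraries.

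Elevated extracellular KCl depolarizes neurons and opens voltage-gated calcium channels, and the calcium signal switches on immediate early genes and the enhancers that serve them. An active enhancer is itself transcribed, and the level of its short-lived RNA is commonly read as a measure of its activity. Mn1 encodes a transcriptional co-regulator that lacks a DNA-binding domain of its own, acts with p300 and retinoic acid receptors, and is known from chromosomal rearrangements in meningioma and myeloid leukemia.

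The depth was 46411271 to 72521194 reads per library, recovered from the CPKM steps. Transcription is given as CPKM, counts scaled to the length of the TAPE and to the reads of the library, and 1870 TAPEs with a mean of at least 0.05 CPKM over the 19 libraries entered the tests. Cortex vehicle replicate 3 carries a striatal tissue label but a cortical title and was grouped by title. Across the 1870 TAPEs its log2 values correlated with the mean of the other cortical vehicle libraries at r = 0.82 and with the striatal vehicle mean at r = 0.53. The cortical results of the distal TAPEs, Mn1 and the 49 kb TAPE are also given without it.

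Markers of striatum followed the labels throughout, and those of cortex and hippocampus did so for most genes. Of 15 genes of striatal neurons, 13 had a recoverable profile and all 13 were highest in striatum. Of 9 cortical projection neuron genes 7 were highest in cortex and 2 in hippocampus. Of 6 hippocampal neuron genes with a profile 4 were highest in hippocampus and 2 in cortex. Glial lists also moved with region: 5 of 6 astrocyte genes and 5 of 7 oligodendrocyte lineage genes were lowest in striatum. Profiles carry no absolute level, so the amount of glial RNA could not be given, and its part in the regional differences below was not tested. In such bulk cultures fewer cells of a type and less RNA per cell cannot be told apart.

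Mn1 lies on the minus strand of chromosome 12 (Rn6), from 51214192 to 51250230, with its start site at 51250230. Of its 55 TAPEs, 44 lay on the downstream side and 11 on the upstream side, at 23538 to 998325 bp from the start site. Only 9 passed the level filter, or 16.4%, compared with 6.79% of all TAPEs. The other 46 held 3 to 101 reads over the 19 libraries, with a median of 16.5, too few for a test by library. The members just inside the filter were those 333 kb (0.0588 CPKM) and 315 kb (0.0589 CPKM) away, and those just outside it were 492 kb (0.0481 CPKM) and 911 kb (0.0408 CPKM) away. The TAPE nearest to the start site, 23538 bp upstream, was one of the untested ones, with 83 reads and a global r of -0.03 with Mn1.

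A group of TAPEs was set by a cut at 250 to 350 kb from the start site. Its 10 members lay 253 to 344 kb downstream in a stretch of 94 kb, and 4 of them passed the filter. The next members on either side lay 248 and 362 kb away, just outside the cut, so the group has no natural edge. The leading one, 298 kb away at chr12:50950307-50953159, had the highest mean level of all 55 members (0.307 CPKM, 933 reads). The Mn1 start site was the nearest of the 17 gene start sites paired with this TAPE, and no gene of the table lay wholly between it and Mn1. The other 3 tested members of the group lay 315 kb (chr12:50933824-50937001), 321 kb (chr12:50928762-50929985) and 333 kb (chr12:50916240-50918960) away.

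In the authors' table of Pearson correlations, 14 of the 55 members had a global r above 0.5 with Mn1, compared with 5.30% of all TAPE-gene pairs. The locus was selected partly for these correlations, so nothing is read from that comparison. The 250 to 350 kb group held 8 of these among its 10 TAPEs, with a median r of 0.66 and a range of 0.28 to 0.86. The remaining 45 members held 6, with a median r of 0.03. Among the 11 TAPEs on the upstream side the highest r was 0.25. These correlations share libraries, depth and region structure, and many rest on few reads. Recomputed without cortex vehicle replicate 3, 15 members lay above 0.5, 8 of them in the group.

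**Figure D1:**
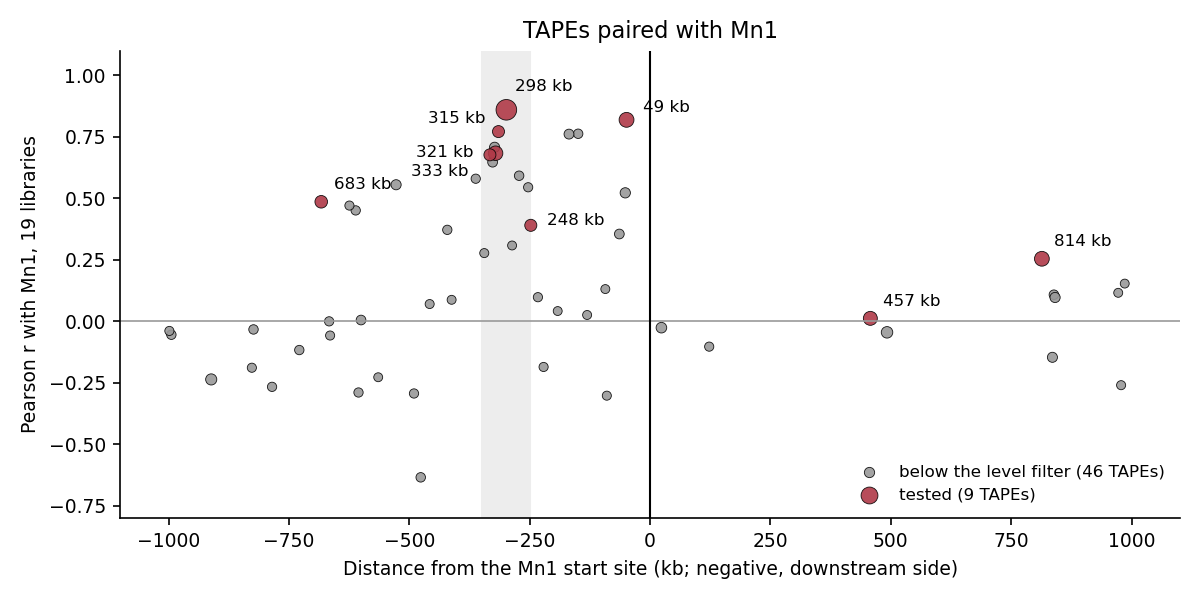
Global Pearson r with Mn1 over 19 libraries (y axis) of the 55 TAPEs paired with it, by distance from the start site in kb (x axis, negative on the downstream side), with circle area growing with mean CPKM. The 9 tested TAPEs are red and the 46 others grey; the grey band marks 250 to 350 kb, where 8 of 10 TAPEs lie above 0.5.

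The TAPE 298 kb away was higher with KCl in every region, and its KCl and vehicle libraries did not overlap in any. In cortex the vehicle libraries gave 0.141, 0.0387 and 0.0885 CPKM and the KCl libraries 0.710, 0.654 and 0.753. In striatum the vehicle libraries gave 0.265, 0.275, 0.163 and 0.194 CPKM and the KCl libraries 0.847, 0.588 and 0.799. Treated cortex thus reached the level of treated striatum, although untreated cortex lay below untreated striatum in all libraries. In hippocampus the vehicle libraries gave 0.0124, 0.0121 and 0 CPKM and the KCl libraries 0.123, 0.0742 and 0.0934, so that treated hippocampus stayed below untreated striatum.

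As ratios of group means in CPKM, KCl was 7.91 times vehicle in cortex (0.706 ± 0.050 against 0.0892 ± 0.051, SD, n = 3 and 3) and 3.32 times in striatum (0.745 ± 0.14 against 0.224 ± 0.055, n = 3 and 4). In hippocampus the ratio was 11.9, but it rested on 4 vehicle reads against 48 KCl reads. Of the 461 non-zero read counts at Mn1 TAPEs 77.4% were even, as when both mates of a fragment are counted. The ratio of the hippocampal read rates was 11.7, with an exact 95% interval of 2.91 to 102 when 2 reads are taken as 1 fragment. That interval covers counting error only and leaves out the spread between libraries. It is no test, since the KCl values of this TAPE chose the locus. On the log2(CPKM + 0.05) scale of the test, which understates changes of low TAPEs, the changes were 2.51 (SE 0.28) in cortex, 1.33 (SE 0.26) in hippocampus and 1.54 (SE 0.21) in striatum. Without cortex vehicle replicate 3 the cortical change was 2.54 and the ratio of means 7.88. The striatal change stayed between 1.43 and 1.69 whichever striatal library was left out.

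The order of the regions depended on the scale: cortex was first on the log2(CPKM + 0.05) scale and hippocampus on the ratio scale. Whether the change of this TAPE differed between regions was not tested, since its KCl values chose the locus.

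The TAPE 333 kb away had the same direction in all regions at a lower level. In cortex its vehicle libraries gave 0.0118, 0.0203 and 0.0218 CPKM and its KCl libraries 0.0950, 0.136 and 0.0860. In hippocampus the vehicle libraries gave 0.0130, 0.0127 and 0.0133 CPKM, which is 2 reads each, and the KCl libraries 0.0386, 0.0389 and 0.0490. Neither region showed any overlap between the treatments. In striatum the vehicle libraries gave 0.0518, 0.0740, 0.0317 and 0.0381 CPKM and the KCl libraries 0.0555, 0.217 and 0.113, with KCl replicate 1 inside the vehicle range. The log2 changes were 1.19 (SE 0.32), 0.55 (SE 0.19) and 0.77 (SE 0.36) in cortex, hippocampus and striatum, and the cortical one was 1.23 (SE 0.37) without cortex vehicle replicate 3.

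Counting members with every KCl library above every vehicle library gave 2 of 9 in cortex, where 5.88% of tested TAPEs did so, 2 in hippocampus (4.01% of tested TAPEs) and 2 in striatum (3.32%). The 298 kb TAPE alone did so in all 3 regions (0.374% of tested TAPEs). These values used the contrast on which the locus was selected, so nothing is read from the comparison with the background.

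The TAPEs 315 and 321 kb away, which lie between the 298 and 333 kb TAPEs, showed no common direction with KCl. At 315 kb the striatal vehicle libraries gave 0.133, 0.0761, 0.114 and 0.169 CPKM and the KCl libraries 0.149, 0.104 and 0.103, and the log2 change was -0.02 (SE 0.28). Its cortical libraries ranged from 0.0174 to 0.0561 CPKM over both treatments, with a log2 change of 0.19 (SE 0.32), or 0.38 (SE 0.35) without cortex vehicle replicate 3. Its hippocampal libraries were at 0 in 4 of 6 cases and at 0.0325 and 0.0110 CPKM in the others. The treatments overlapped in all 3 regions.

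At 321 kb the log2 changes were -0.55 (SE 0.35) in cortex, -0.26 (SE 0.46) in hippocampus and 0.41 (SE 0.32) in striatum. Its striatal vehicle libraries gave 0.129, 0.198, 0.352 and 0.0847 CPKM and the KCl libraries 0.278, 0.196 and 0.266. Its cortical vehicle libraries gave 0.157, 0.0676 and 0.109 CPKM and the KCl libraries 0.0704, 0.0275 and 0.0836. Its hippocampal vehicle libraries gave 0.0578, 0 and 0.0592 CPKM and the KCl libraries 0, 0.0864 and 0. The treatments overlapped in all 3 regions, and each change lay within 2 SE of 0. Without cortex vehicle replicate 3 the cortical change was -0.54 (SE 0.41).

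**Figure D2:**
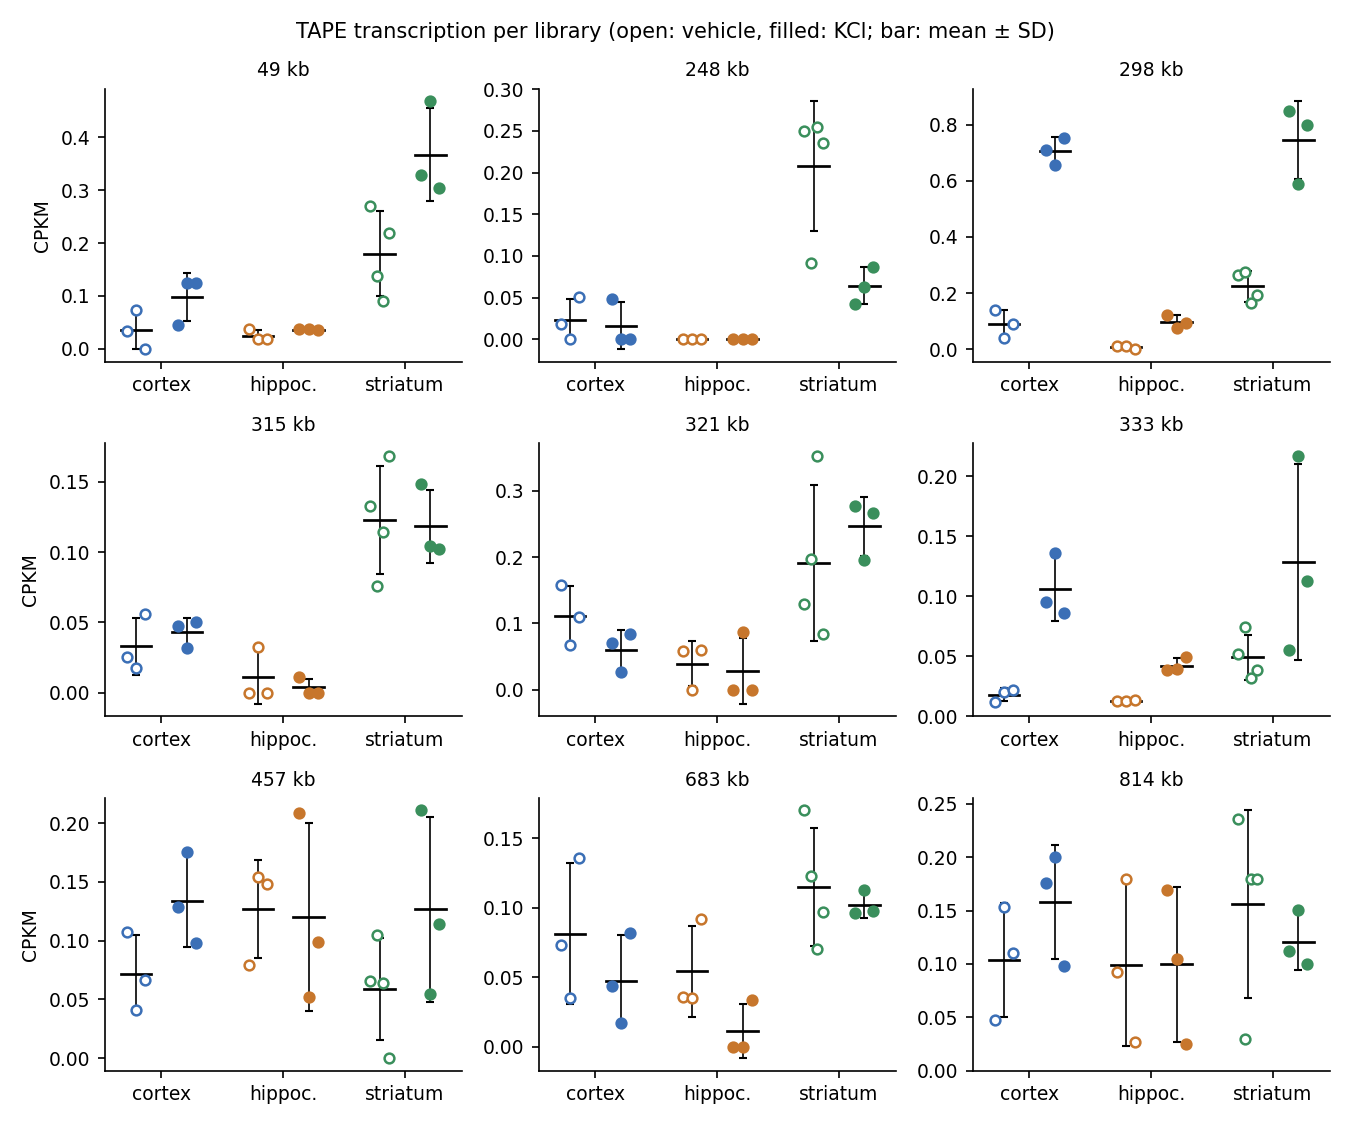
CPKM (y axes, separate scales) of the 9 tested Mn1 TAPEs in each of the 19 libraries, by region (x axis), with open circles for vehicle, filled circles for KCl and bars for the group mean ± SD. The 298 kb panel shows filled circles above open ones in all 3 regions, while the 248, 315 and 683 kb panels show striatal means above those of the other regions, with the striatal KCl mean below the striatal vehicle mean.

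Summed over the 10 TAPEs of the group, cortex gave 0.267 ± 0.095 CPKM with vehicle and 1.01 ± 0.047 with KCl, and striatum 0.656 ± 0.10 and 1.40 ± 0.11. Hippocampus gave 0.0792 ± 0.020 and 0.177 ± 0.020. The share of these reads at the leading TAPE was 43.9% in vehicle and 75.2% in KCl cortex, and 41.7% and 61.3% in striatum. Without the leading TAPE, the sums with vehicle and KCl were 0.178 ± 0.052 and 0.304 ± 0.015 CPKM in cortex and 0.432 ± 0.13 and 0.659 ± 0.089 in striatum. The 248 kb TAPE, lower with KCl than with vehicle in striatum, lies just outside the cut and is not in these sums. Its inclusion would narrow the striatal difference. In hippocampus the corresponding sums were 0.0710 ± 0.026 and 0.0805 ± 0.040, within their spread. Without cortex vehicle replicate 3, the cortical vehicle sums were 0.247 ± 0.12 CPKM with the leading TAPE and 0.157 ± 0.053 without it (SD, n = 2). Of the 6 untested members of the group, those 253, 272, 287 and 327 kb away had no read in any hippocampal library.

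The KCl tests of single regions called none of the 5 tested members outside the group, where 0.321% of the 1870 TAPEs were called in cortex, 0.0535% in hippocampus and 1.23% in striatum. An unadjusted p under 0.05 was seen for the 49 kb TAPE in cortex, the 683 kb TAPE in hippocampus and the 49 and 248 kb TAPEs in striatum, and limma voom on recovered reads also called none in any region. The test of a KCl change that differs between regions called none of the 5 (0.0535% of all tested TAPEs), with an unadjusted p under 0.05 for the 248 kb TAPE alone, and voom called none.

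With all 19 libraries in 1 fit, the mean KCl change was called for 1 of the 5, the TAPE 49 kb away, where 6.9% of tested TAPEs were called. It lies at chr12:51200380-51202270, 11922 bp past the annotated 3' end of the gene. In striatum its vehicle libraries gave 0.270, 0.139, 0.0913 and 0.219 CPKM and its KCl libraries 0.330, 0.468 and 0.304, without overlap. In cortex its vehicle libraries gave 0.0339, 0.0729 and 0 CPKM and its KCl libraries 0.0456, 0.125 and 0.124, with overlap. In hippocampus its vehicle libraries gave 0.0374, 0.0182 and 0.0192 CPKM, and its KCl libraries lay between 0.0352 and 0.0373. The mean log2 change was 0.65 (SE 0.20; limma, adjusted p = 0.0386). Within single regions it was called in none, with adjusted p = 0.149 in striatum, 0.472 in cortex and 0.699 in hippocampus. The call is a narrow one: it was lost in 12 of 19 fits that each left out 1 library, including that without cortex vehicle replicate 3, where the mean change was 0.54 and the cortical change 0.49 (SE 0.40) in place of 0.83 (SE 0.39).

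The TAPE 248 kb away (chr12:51001616-51003380) had the opposite direction in striatum. Its vehicle libraries gave 0.249, 0.0913, 0.254 and 0.235 CPKM and its KCl libraries 0.0428, 0.0627 and 0.0869, so that all KCl values lay below all vehicle values. The log2 change of -1.13 (SE 0.32) did not pass the test (limma, adjusted p = 0.128). In cortex 3 of 6 libraries were at 0, and the others lay between 0.0182 and 0.0505 CPKM. No hippocampal library held a read.

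The TAPEs 457, 683 and 814 kb away were called for KCl in no region. At 683 kb (chr12:50566295-50568261) the hippocampal vehicle libraries gave 0.0360, 0.0350 and 0.0921 CPKM and the KCl libraries 0, 0 and 0.0339. Its log2 change there was -0.77 (SE 0.31; limma, adjusted p = 0.360). On the upstream side, the TAPE 457 kb away (chr12:51706997-51708340) gave 0.0716 ± 0.033 CPKM in vehicle and 0.134 ± 0.039 in KCl cortex (log2 change 0.61, SE 0.33, adjusted p = 0.523). The TAPE 814 kb away (chr12:52063246-52064590) gave 0.156 ± 0.088 CPKM in vehicle and 0.121 ± 0.027 in KCl striatum (log2 change -0.14, SE 0.39, adjusted p = 0.885).

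**Figure D3:**
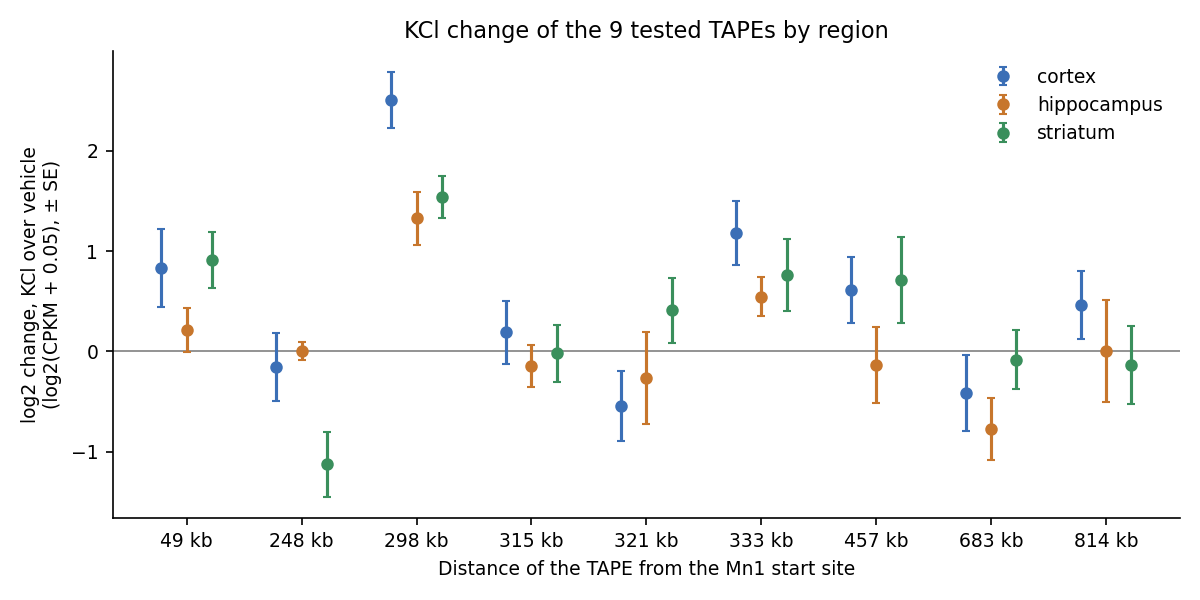
log2 change with KCl over vehicle, on log2(CPKM + 0.05), for the 9 tested Mn1 TAPEs (x axis, by distance from the start site) in cortex, hippocampus and striatum, with bars of 1 SE from limma. The 298 kb TAPE stands at 2.51, 1.33 and 1.54; the 315 kb TAPE lies within 1 SE of 0 in every region.

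The F-test over the 3 regions, with treatments pooled, called 6 of the 9 members, where 48.8% of tested TAPEs were called, and 5 of these were selective for striatum (16.7% of tested TAPEs). Selective means that the F-test was passed and both pairwise contrasts favoured that region (unadjusted p under 0.05). Mn1 stands as the striatal example of the study, chosen on these libraries, so the count is not independent evidence of its direction. Without cortex vehicle replicate 3 the same 6 members were called.

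The level filter bears on these calls. Over the 12 cortical and hippocampal libraries the 49, 248, 315 and 683 kb TAPEs averaged 0.0487, 0.00979, 0.0227 and 0.0487 CPKM, so all 4 reached 0.05 CPKM only through striatum, the region where they were called higher. Neither their number nor their regional adjusted p given below is therefore support for a regional pattern. With no filter on low TAPEs the same 6 members and 3 others were called by region. The 49, 248, 315 and 683 kb TAPEs then had adjusted p of 7.82e-06, 8.89e-07, 3.03e-06 and 0.0242 (limma F-test).

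Region calls without a KCl call were found at 248 and 683 kb outside the group, and the 315 and 321 kb TAPEs had a region call and treatments that overlapped in every region. The 248 kb TAPE averaged 0.146 ± 0.095 CPKM in striatum (SD, n = 7), 0.0196 ± 0.024 in cortex (n = 6) and 0 in hippocampus (limma, adjusted p = 2.65e-06). A count of 0 over the 6 hippocampal libraries allows up to 3 fragments, taken as 6 reads, or 0.00989 CPKM, for counting error only. The striatal mean was 14.8 times this limit. That mean pools treatments that did not overlap, with the KCl libraries at only 0.0428 to 0.0869 CPKM, so it is no lower bound for striatum. The 315 kb TAPE averaged 0.121 ± 0.031 CPKM in striatum, 0.0381 ± 0.016 in cortex and 0.00725 ± 0.013 in hippocampus (limma, adjusted p = 5.83e-07), and no striatal library fell into the range of the other regions.

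The 321 kb TAPE averaged 0.215 ± 0.092 CPKM in striatum, 0.0859 ± 0.044 in cortex and 0.0339 ± 0.039 in hippocampus (limma, adjusted p = 4.01e-05). Striatum and cortex overlapped there, with a log2 difference of 0.94 (SE 0.29). The 683 kb TAPE averaged 0.109 ± 0.031 CPKM in striatum, 0.0645 ± 0.042 in cortex and 0.0328 ± 0.034 in hippocampus (limma, adjusted p = 0.00487). Its libraries were, for striatal vehicle, 0.170, 0.123, 0.0702 and 0.0966 CPKM and, for striatal KCl, 0.0960, 0.112 and 0.0974, while the cortical ones ranged from 0.0171 to 0.136. With vehicle libraries only its regional call was lost (adjusted p = 0.245).

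The 49 kb TAPE was called for both region and KCl, and the 298 kb TAPE for region. At 49 kb striatum averaged 0.260 ± 0.13 CPKM, cortex 0.0668 ± 0.050 and hippocampus 0.0307 ± 0.0094 (limma, adjusted p = 4.19e-06), and cortex did not separate from hippocampus (log2 difference 0.41, SE 0.29). At 298 kb striatum (0.447 ± 0.29 CPKM) and cortex (0.398 ± 0.34) were each above hippocampus (0.0525 ± 0.051), by 2.22 (SE 0.44) and 1.79 (SE 0.46) on the log2 scale. Striatum and cortex did not separate there with treatments pooled (log2 difference 0.43, SE 0.44). That contrast takes the KCl change as spread, so it cannot decide whether striatum and cortex differ. Every vehicle library of cortex (0.0387 to 0.141 CPKM) lay below every one of striatum (0.163 to 0.275), while the KCl libraries overlapped. The regional adjusted p was 2.72e-10 with treatment as a covariate and 2.09e-05 with vehicle libraries only (limma F-test). The F-test does not compare striatum with cortex alone. The 333 kb TAPE was not called for region (limma, adjusted p = 0.109), but was with treatment as a covariate (adjusted p = 0.0155). It averaged 0.0447 CPKM over the cortical and hippocampal libraries, so it too passed the level filter only through striatum, where its mean was highest. The covariate call is therefore no support for a regional pattern. With treatments pooled and no filter its adjusted p was 0.256 (limma F-test). The 457 and 814 kb TAPEs were called for neither region nor KCl (limma, region adjusted p = 0.457 and 0.461).

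Over all 55 members, 32 had their highest regional mean in striatum, 12 in cortex and 11 in hippocampus. Among all TAPEs with reads, 33.7% were highest in striatum, and among tested TAPEs 46.3%. In the 250 to 350 kb group the count was 9 of 10 in striatum and 1 in cortex. Most of these members hold few reads, so a single region's rank is uncertain for each one. Since Mn1 is the striatal example of the study, nothing is read from the comparison with the background.

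The level of Mn1 itself was recovered from the 55 deposited correlations, which fix its standardised profile (mean 0, SD 1 over the 19 libraries) but not its scale. The correlations within regions, which were not used for this, were returned to within 2.2e-14. In striatum the profile stood at 0.25, 0.26, 0.41 and 0.48 SD units with vehicle and at 1.85, 1.54 and 1.67 with KCl. In cortex it stood at -0.40, -0.35 and -0.30 with vehicle and at 0.72, 0.51 and 0.47 with KCl. In hippocampus it stood at -1.22, -1.23 and -1.22 with vehicle and at -1.13, -1.20 and -1.13 with KCl.

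KCl libraries lay above vehicle libraries in each region, by 0.92 SD units in cortex (0.95 without cortex vehicle replicate 3), 0.07 in hippocampus and 1.34 in striatum. The order of the group means was striatum KCl, cortex KCl, striatum vehicle, cortex vehicle, hippocampus KCl and hippocampus vehicle. The only neighbours in that order whose libraries overlapped were cortex KCl and striatum vehicle. Since CPKM, on which the methods base these correlations, cannot fall below 0, the profile allows a KCl to vehicle ratio of Mn1 of at most 2.05 in cortex and 1.85 in striatum. The corresponding ratios of the 298 kb TAPE were 7.91 and 3.32. For hippocampus no limit is given, since its vehicle libraries hold the lowest value of the profile (-1.23). A small difference in SD units can be a large ratio there, so the profile does not tell how far Mn1 responded in hippocampus. The gene and the TAPE also differed in treated cortex, where the TAPE reached the striatal level and the gene did not.

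Among the 17 genes paired with the 298 kb TAPE, Mn1 had the highest r globally (0.86) and within cortex (0.97), hippocampus (0.91) and striatum (0.96). The next gene globally was Tfip11, a factor in spliceosome disassembly, at 0.74. Within a region these values rest on 6 or 7 libraries in 2 treatments, so they largely follow the difference between the treatments. Over all chromosomes the r of this TAPE with Mn1 ranked 5 among the 1870 tested TAPEs. After each group's mean was removed from both, r was 0.23 over the 19 libraries. Without cortex vehicle replicate 3 the global r was 0.86. The correlation of distal TAPEs with Mn1 was part of the selection, so these ranks are descriptions.

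The 49 kb TAPE also had Mn1 as its best gene (r = 0.82), next to Hps4, a subunit of a complex for lysosome-related organelles, at the same value to 2 digits. At 333 kb Tfip11 and Mn1 were level (both 0.68). After each group's mean was removed, r with Mn1 was -0.53 at 49 kb and -0.66 at 333 kb, so within groups neither TAPE rose with the gene. At 4 TAPEs with a region call Hps4 had the highest global r: 0.69 at 248 kb, 0.91 at 315 kb, 0.79 at 321 kb and 0.58 at 683 kb. Mn1 ranked 7 of 17 genes at 248 kb and 3 at the other 3 TAPEs. With group means removed, r with Mn1 was 0.34 at 248 kb, 0.57 at 315 kb, 0.10 at 321 kb and -0.26 at 683 kb. The members with r above 0.5 in each region were the 49, 298 and 333 kb TAPEs, 3 of the 34 with a value in each region, compared with 0.566% of all such pairs. As 2 of these 3 are in the group selected for this, nothing is read from the comparison.

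**Figure D4:**
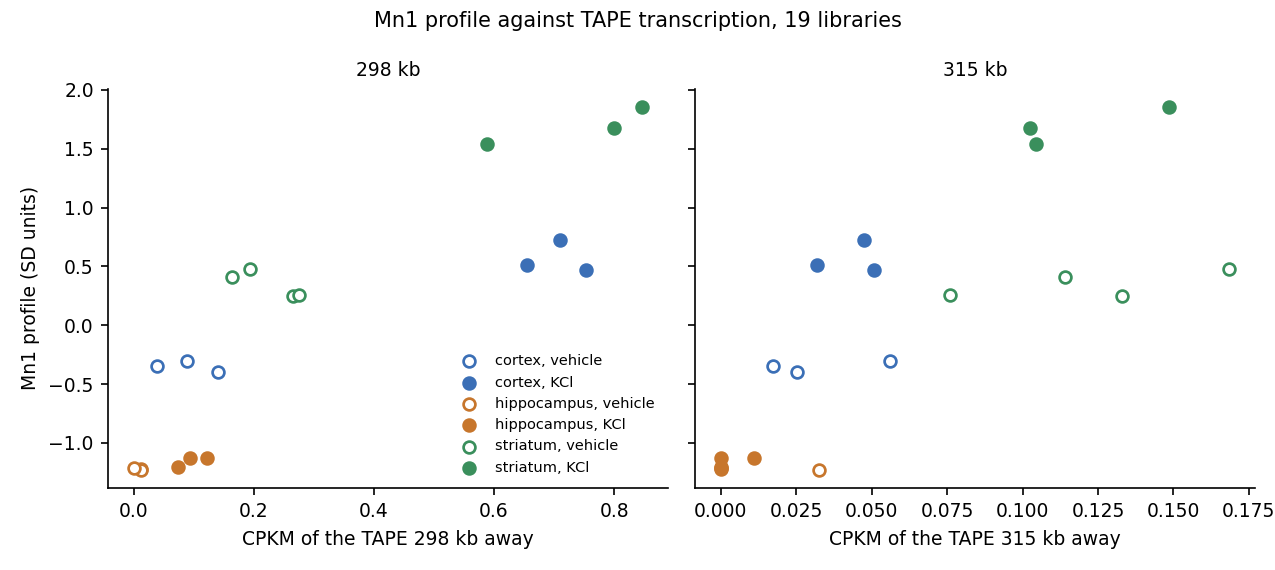
Standardised Mn1 profile (y axis, SD units) against CPKM (x axes) of the TAPEs 298 kb and 315 kb away in the 19 libraries, with open circles for vehicle and filled circles for KCl. In the left panel KCl moves cortical and striatal points up and to the right, while in the right panel it moves them up with no common shift along the x axis.

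Mn1 shares its TAPEs with 37 other genes. Of the 36 with a profile, the most alike over the 19 libraries were Plcxd1 (r = 0.91), a phospholipase C domain protein, Zfp605 (r = 0.89), a zinc finger protein, and Hps4 (r = 0.87). Among 16501 other genes of all chromosomes the 5 most alike were Cdc42ep3, an effector of the small GTPase Cdc42 (r = 0.99), and Ppp1r12a, the targeting subunit of myosin phosphatase (r = 0.98). They were followed by Nudt4, a Nudix hydrolase (r = 0.98), Bcl2l11, which encodes the pro-apoptotic protein Bim (r = 0.97), and Ythdc1, a nuclear reader of methylated RNA (r = 0.97). Like Mn1, each of the 5 had its highest mean in striatum with KCl and a mean below -0.89 SD units in both hippocampal groups. These genes were picked for their r with Mn1, so this likeness follows from the choice.

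The genes known to be induced by neuronal activity gave the background for the KCl effect. All 24 had a profile, and 23 rose with KCl (exact permutation test within regions, two-sided, adjusted p below 0.05), where 6.07% of 16502 genes rose. Their median change was 1.73 SD units, from Bdnf, a secreted neurotrophin, at 1.05 to the nuclear receptor Nr4a3 at 1.94. The exception was Inhba, a subunit of activin, at -0.03 (exact permutation test, adjusted p = 0.834). The correlation of these genes with Mn1 ranged from -0.35 for Bdnf to 0.82 for the AP-1 subunit Fosl2.

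Of 11 known partners of the MN1 protein 10 had a profile, 1 rose, 2 fell and 7 did not pass, which makes 3 called where 21.1% of all genes were called in either direction. Rara, a retinoic acid receptor, rose by 1.14 SD units (exact permutation test, adjusted p = 0.00184). The related receptors Rarb and Rxrg fell by 0.11 and 0.23 SD units (exact permutation test, adjusted p = 0.010 and 0.020). Crebbp, an acetyltransferase close to p300, stood at -0.24 (adjusted p = 0.70 by the exact permutation test) and the nuclear receptor coactivator Ncoa3 at -0.04 (adjusted p = 0.921 by the same exact test).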

How the data were processed

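Directional total RNA-seq libraries (rRNA depleted, 75 bp paired-end) were made by the authors from the 19 cultures. Per the labels and the study's methods, the authors trimmed reads with Trim Galore 0.4.5, aligned them with STAR to Rn6, used SAMtools 1.9 and counted reads in SeqMonk over TAPEs, keeping duplicates and both strands. The deposited values are counts scaled to feature length and to library size (CPKM, the same unit as RPKM), so a longer or deeper library does not by itself raise them. The deposited table also holds Pearson correlations of TAPE and gene CPKM, which are scores between -1 and 1.

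All library columns matched a sample. CPKM was tested with limma 3.58.1 (R 4.3.3, trend) on log2(CPKM + 0.05), two-sided, over TAPEs with a mean of at least 0.05 CPKM, with Benjamini-Hochberg adjustment over all 1870 and a threshold of 0.05. The contrasts were KCl against vehicle per region, averaged over the 3 regions and tested between them, and region against region with treatments pooled. Whole reads were recovered for 100% of CPKM values (within 0.1 of a whole read), and limma voom on these, which called 130 TAPEs for KCl over the 3 regions against 129, was an alternative, with other pseudocounts, filters, centring, a replicate block and leaving out each library. Gene profiles were solved from the correlations for 93.2% of 17715 gene symbols and tested by exact permutation of treatments within regions (14000 arrangements). Both methods were tested on simulated data.

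The members and gene lists were chosen with earlier results of these data known. Every library is given for TAPEs called in a test, or tested and 250 to 350 kb away, and group means for other tested members. Sequences of the TAPEs are not given here.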

Additional observations from a re-analysis of the deposited data

Results flagged for a closer look

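In striatum vehicle replicate 4, the TAPE 248 kb away stood at 0.0913 CPKM, whereas the other 3 vehicle libraries of striatum lay between 0.235 and 0.254. Its gap to the next library was 0.882 of the group's whole range, above the critical value of 0.829 for 4 samples. Of 10 such checks, over the 9 tested TAPEs and the Mn1 profile, 1 gave this result, and chance alone flags about 1 in 20.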

How the results depend on the processing

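The counts of called KCl changes cover the 5 tested members outside the 250 to 350 kb group. They were 0 in cortex, hippocampus and striatum under every alternative run. Over the 3 regions the count was 0 in place of 1 with a pseudocount of 0.01, with voom on recovered reads and with no filter, and 0 to 1 when 1 library was left out. The region count was 6 whichever library was left out. It was 3 with the 0.1 CPKM filter, which leaves out the 248, 315 and 683 kb TAPEs by level, and 9 with no filter, which adds those 149, 168 and 527 kb away. No alternative called a KCl change that differs between regions. The call of the 49 kb TAPE was lost with a pseudocount of 0.01 (adjusted p = 0.0698), with voom (0.0627) and with no filter (0.331). It was also lost without cortex KCl replicates 2 and 3, cortex vehicle replicate 3, hippocampus KCl replicates 1, 2 and 3, hippocampus vehicle replicates 2 and 3, striatum KCl replicates 1 and 5 or striatum vehicle replicates 4 and 6, each left out alone. The cause was not tested. For the 298 kb TAPE voom gave log2 changes of 3.17 in cortex, 3.43 in hippocampus and 1.74 in striatum. Same-numbered libraries did not deviate together (r of -0.04 to 0.01), and the replicate block gave 0, 0 and 1 called members in cortex, in hippocampus and over the 3 regions. Leaving out each library, an alternative chosen after seeing the data, gave 2956 to 3632 gene profiles called for KCl, against 3478, and 23 of the activity-induced genes each time.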

Other observations

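Below the level filter, 5 TAPEs outside the 250 to 350 kb group had a global r above 0.5 with Mn1, all on the downstream side. The TAPE 149 kb away (chr12:51100087-51101587) had no read in any cortical or hippocampal library, 16 reads in striatum and r = 0.76. The TAPE 168 kb away (chr12:51080781-51082895) averaged 0.0384 ± 0.031 CPKM in striatum and 0.0115 in cortex, had no read in hippocampus and had r = 0.76. The TAPE 527 kb away (chr12:50721712-50723838) averaged 0.0529 ± 0.024 CPKM in striatum, 0.00432 in cortex and 0.00274 in hippocampus, with r = 0.55. At 362 kb 12 of 17 reads were from striatum and r was 0.58, and at 52 kb 28 of 57 reads were from striatum and r was 0.52. Within the 250 to 350 kb group, the untested TAPE 323 kb away (chr12:50926377-50928262, 46 reads) had r = 0.71 globally and 0.95 within cortex.

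Hps4, the best-correlated gene of the 248, 315, 321 and 683 kb TAPEs, averaged 1.07 SD units in striatum with vehicle and 1.45 with KCl. In cortex it averaged -0.69 and -0.18. Tfip11, Srrd and Hps4, whose start sites lie on the far side of the distal group, each rose with KCl over the regions. Their changes were 0.79, 0.55 and 0.36 SD units (exact permutation test, adjusted p = 0.0252, 0.0144 and 0.00752). Other genes sharing TAPEs with Mn1 fell by the same test: Galnt9, Chfr, Pus1, Pxmp2 and, also on the far side, Grk3 and Asphd2. Of all genes, 21.1% were called in either direction, so nothing is read from these calls about the locus.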
